A study of Leucoraja erinaceus with 6 samples.

Results

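Vesicle trafficking and small GTPase genes were examined in spinal cord cells of little skate (Leucoraja erinaceus) embryos. Members were the described rows of the deposited table whose protein description names a RAS oncogene family member, an ADP-ribosylation factor, coatomer, clathrin, syntaxin, a synaptic protein, a vesicle or vesicular protein, a sorting nexin, a SEC protein, vacuolar protein sorting or an adaptor-related protein. The 2 solute carrier rows caught by these words were left out, which gave 75 rows of 1576 with a description and 7080 in all. The rule used the descriptions and no measured value. By their usual place in the cell, 28 rows were secretory (endoplasmic reticulum and Golgi), 26 endosomal or lysosomal and 8 synaptic, and 13 are given as other, either because their role lies elsewhere or because the class list did not name them. With the duplicate letters of fish gene names dropped and a SYNCRIP-like row counted as SYNCRIP, the 75 rows stand for 68 gene names. Names follow the description of the matched protein, and no skate gene model was used to check them.

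Pectoral fin motor neurons gave 3 libraries (replicates 1, 2 and 3) and cells of the tail spinal cord gave another 3 (replicates 1, 2 and 4), all from wild type embryos at stage 30 to 31. The cells were sorted by hand. The groups differ in cell class and in axial level at once, so these cannot be told apart. The labels do not state that each library has its own embryos. A p-value therefore reflects just the spread among these 6 libraries, which may be technical.

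Membrane proteins and secreted proteins enter the endoplasmic reticulum through the Sec61 translocon, leave it in COPII-coated vesicles and cross the Golgi, where COPI coats carry material back. RAB and ARF proteins are small GTPases that mark each compartment and recruit its coats, tethers and motors. Endocytosed membrane passes from clathrin and AP-2 to RAB5 early endosomes and on to RAB11 recycling or RAB7 late endosomes. In neurons the same machinery supplies the growing axon and, at the synapse, SNARE proteins with RAB3 and synaptotagmins release transmitter.

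Values are TPM, the transcript level scaled for transcript length and library total. The deposited rows held 48449 to 74224 TPM per library, and read depth is unknown. The number of rows listed at 0 ran from 5 of 7080 in pectoral replicate 1 to 3552 in tail replicate 4. An entry at 0 may be a failed estimate. In bulk libraries, fewer cells of a type and less RNA per cell cannot be told apart. As a check on the labels, ISL1, a motor neuron transcription factor, stood at 1.63, 1.22 and 4.81 TPM in pectoral motor neurons against 0.249, 0.0563 and 0 TPM in tail cells. The 4 motor neuron markers with a row summed to 11.6, 7.99 and 8.75 TPM in pectoral motor neurons and 5.96, 2.91 and 3.29 TPM in tail cells, so the groups did not overlap. Of the 4 markers, ISL1 and ISL2 separated the groups, while CHAT and SLC18A3 did not. ISL2 was low, at 3.43, 0.956 and 0.327 TPM in pectoral motor neurons against 0.139, 0 and 0 TPM in tail cells. It was too low for the test described below, and most such separated rows of the whole table had pectoral libraries higher. CHAT, which makes acetylcholine, stood at 2.61, 3.72 and 0 TPM in pectoral motor neurons against 2.85, 2.81 and 0.522 TPM in tail cells. SLC18A3, the vesicular acetylcholine transporter, stood at 3.88, 2.09 and 3.61 TPM in pectoral motor neurons and at 2.72, 0.0470 and 2.77 TPM in tail cells. MNX1 and LHX3 had no described row and were not analysed here.

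Most trafficking rows were low. Their mean over the 6 libraries had a median of 2.52 TPM over the 75 rows, against 2.09 TPM over the other 1501 described rows. Only 4 of the 75 rows averaged at least 10 TPM (RAB1A, RAB7, AP2M1 and RAB1B), and 20 averaged under 1 TPM. All 75 rows were above 0 in pectoral replicate 1. In pectoral replicates 2 and 3, 18 and 17 rows were listed at 0, and in tail replicates 1, 2 and 4 the numbers were 6, 14 and 39. In tail replicate 4 that was 52% of the trafficking rows, beside 44.8% of the other described rows and 50.2% of all rows of the table. The 4 rows at 1 TPM or more in all 6 libraries were RAB1A, RAB10, SYNGR3a and VAT1. The highest value of a row fell in tail replicate 1 for 31 rows and in pectoral replicate 1 for 19. Over all rows of the table the median was also highest in tail replicate 1, at 1.76 TPM. It was 1.58 TPM in pectoral replicate 1 and lowest, at 0 TPM, in tail replicate 4.

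**Figure D1:**
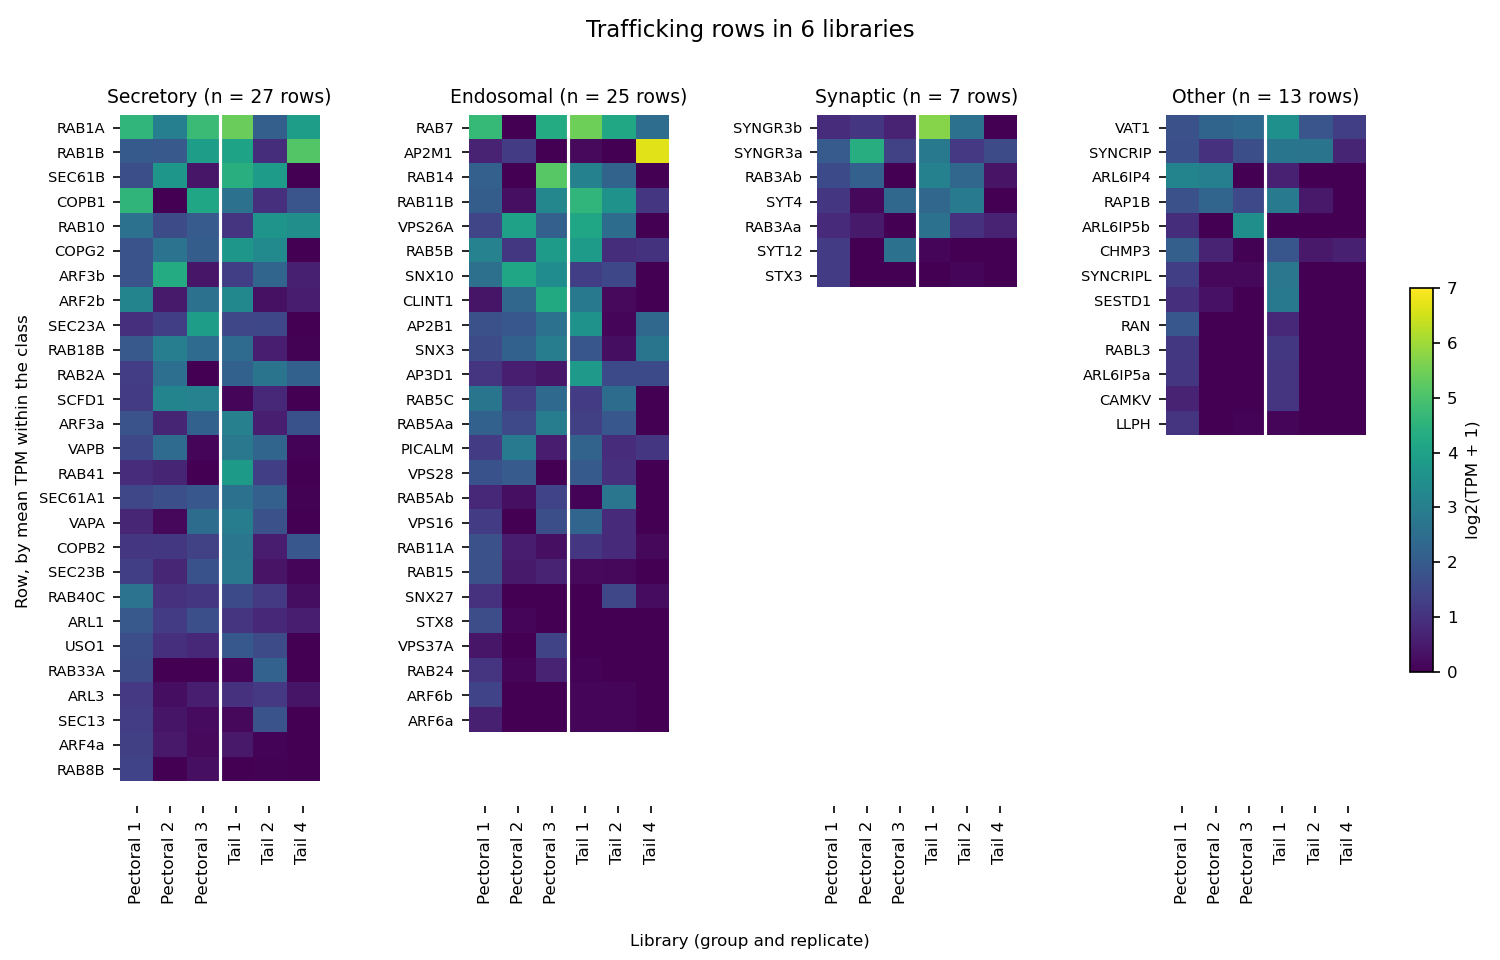
Level of 72 of the 75 trafficking rows, as log2(TPM + 1) by colour, in 6 libraries (columns) for 4 classes (panels), ordered by mean TPM. Dark cells are values at or near 0 and are most common in tail replicate 4, where 39 of the 75 rows were listed at 0.

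The summed level of all 75 rows was 227, 185 and 293 TPM in pectoral motor neurons and 468, 167 and 199.7 TPM in tail cells. Tail replicate 1 lay far above the other 5 libraries, and the groups overlapped. As a share of all deposited TPM the sums were 0.455%, 0.336% and 0.464% in pectoral libraries and 0.631%, 0.289% and 0.412% in tail libraries. These shares also depend on the highest row of each library. That row held 32.7%, 38.3% and 47.2% of the deposited TPM in pectoral libraries and 27.7%, 29.3% and 25.8% in tail libraries. Secretory rows summed to 107, 84.1 and 115 TPM in pectoral motor neurons and 174, 76.2 and 71.8 TPM in tail cells. Endosomal rows summed to 80.7, 59.2 and 139.8 TPM in pectoral motor neurons and 158, 63.3 and 122 TPM in tail cells. The 2 classes were thus of like size, and neither separated the groups.

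Synaptic rows summed to 11.2, 24.96 and 19.2 TPM in pectoral motor neurons and 94.6, 19.1 and 2.94 TPM in tail cells. The highest and the lowest of these sums were both tail libraries. In tail replicate 1 a single row, SYNGR3b, made up 54.99% of the synaptic sum. In tail replicate 4 the endosomal sum rested on AP2M1, with 83.5% of it. The ratio of mean summed levels, pectoral over tail, was 0.951 for secretory, 0.815 for endosomal and 0.474 for synaptic rows. Without tail replicate 1 these ratios were 1.38, 1.005 and 1.67, and synaptic rows then had the highest ratio in place of the lowest. These sums were not tested.

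**Figure D2:**
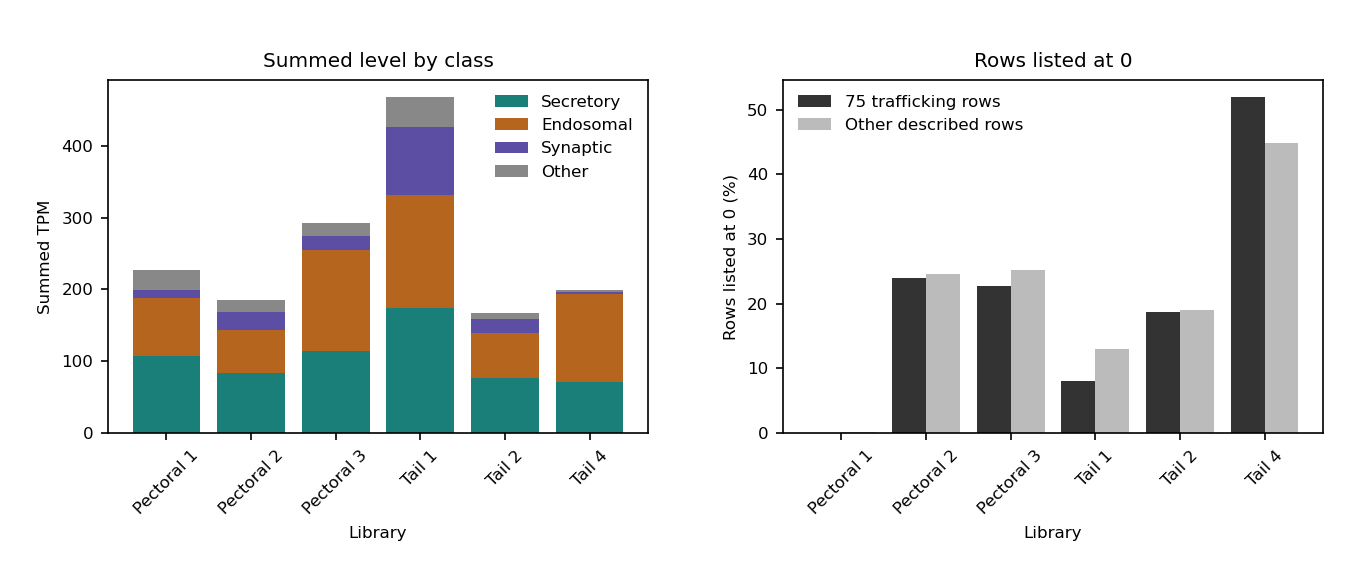
Left, summed TPM of the 4 classes stacked for each library. Right, percent of rows listed at 0 among the 75 trafficking rows (dark) and the 1501 other described rows (light). Tail replicate 1 holds the highest sum, 468 TPM, and tail replicate 4 the most rows at 0, 52% of the trafficking rows.

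Rows reaching 1 TPM in 3 or more of the 6 libraries were compared between the groups with limma on log2(TPM + 1), two-sided, with Benjamini-Hochberg adjustment over all 3752 such rows. Of the 75 trafficking rows 45 entered the test (21 secretory, 16 endosomal, 5 synaptic and 3 other). Of these, 0 passed an adjusted p of 0.05, where 0.08% of all tested rows did (0.0533% higher and 0.0267% lower in pectoral libraries). At an unadjusted p under 0.05 there were 2 of 45, or 4.44%, both higher in pectoral libraries (SNX10 and SCFD1, of which SCFD1 entered the test through the pectoral group only and had to differ), against 7.04% of all tested rows in either direction and 3.09% higher in pectoral libraries. The smallest adjusted p from limma among them was 0.58. Groups did not overlap in 3 tested rows that were higher in pectoral libraries (SNX10, ARL1 and again SCFD1; 6.67%, against 4.18% of all tested rows) and in 1 that was higher in tail libraries (2.22%, against 7.6%). The standard error of a log2 fold change had a median of 1.04 over the 45 rows, and 37 of the 45 spanned more than 2 log2 units between libraries of the same group. With untested rows counted, 5 of the 75 rows were separated with pectoral libraries higher, against 326 of all 7080 rows (4.6%). With tail libraries higher it was 1 of the 75 rows, against 297 of all 7080 rows (4.19%). Of all 326 rows separated with pectoral libraries higher 157 were tested, against 285 of the 297 with tail libraries higher. Separated rows too low for the test thus mostly had pectoral libraries higher. A missed threshold does not show that a row was alike in both groups.

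Fold changes, pectoral minus tail, are differences of mean log2(TPM + 1), which understate the change of low rows. Of the 45 tested rows 24 were positive and 21 negative, or 53.3% positive against 43.5% of all tested rows. The median was 0.09 against -0.18 over all tested rows. It was -0.05 with a pseudocount of 5 (all tested rows -0.11), 0.73 without tail replicate 1 (all tested rows 0.17) and -0.26 without tail replicate 4 (all tested rows -0.44). The sign thus depended on the setting. The median of all tested rows moved the same way when tail replicate 1 or 4 was left out. With the pseudocount of 5 it moved the opposite way. By class, the median was 0.09 over the 21 secretory rows, 0.30 over the 16 endosomal rows and -0.53 over the 5 synaptic rows. Without tail replicate 1 these medians were 0.61, 0.81 and -0.10, and without tail replicate 4 they were -0.26, -0.11 and -1.39. The secretory median was also negative, at -0.06, with a pseudocount of 5.

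**Figure D3:**
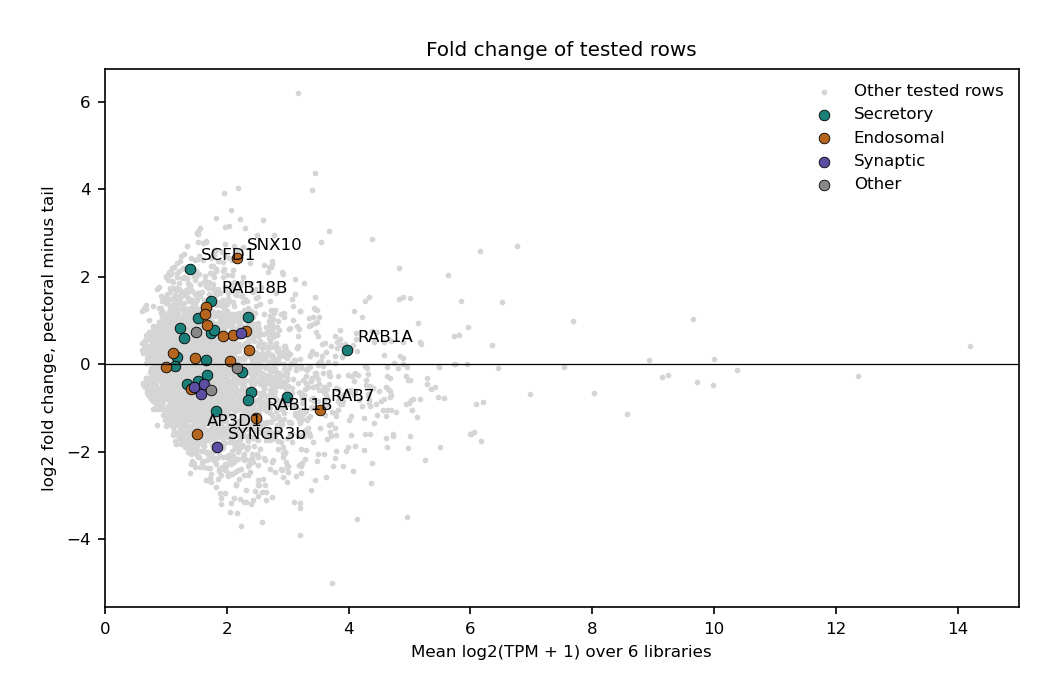
Log2 fold change, pectoral minus tail, against mean log2(TPM + 1) over the 6 libraries, for 3752 tested rows (grey) and the 45 tested trafficking rows (coloured by class). The trafficking rows lie inside the cloud of other rows, from -1.90 for SYNGR3b to 2.43 for SNX10.

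Among secretory rows, those of the early pathway RABs were the highest. RAB1A, which acts between the endoplasmic reticulum and the Golgi, stood at 23.5, 7.09 and 26.4 TPM in pectoral motor neurons against 41.4, 3.33 and 14.1 TPM in tail cells. Its close relative RAB1B stood at 2.98, 2.88 and 13.8 TPM in pectoral motor neurons against 15.7, 0.882 and 33.9 TPM in tail cells. In both rows the tail libraries enclosed all 3 pectoral values, with log2 fold changes of 0.32 (SE 0.93, limma adjusted p = 0.97) for RAB1A and -0.76 (SE 1.05, limma adjusted p = 0.91) for RAB1B. The rows are contigs of 1 Trinity component, a cluster of related assembled sequences, so reads could have been split between them. Summed, they gave a log2 difference of -0.09 (SE 0.91, limma adjusted p = 0.996).

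RAB2A, a Golgi RAB, stood at 1.42, 4.92 and 0 TPM in pectoral motor neurons against 3.51, 5.52 and 3.52 TPM in tail cells. RAB10, which brings membrane to the surface of growing axons in rodents, stood at 5.09, 2.07 and 3.01 TPM in pectoral motor neurons against 1.099, 11.3 and 9.94 TPM in tail cells. RAB18B, of the endoplasmic reticulum and lipid droplets, stood at 2.86, 6.94 and 4.498 TPM in pectoral motor neurons against 4.503, 0.491 and 0.0207 TPM in tail cells. Groups overlapped in all 3 rows, and the limma adjusted p was 0.89 for RAB2A, 0.92 for RAB10 and 0.87 for RAB18B. RAB40C was at 5.32, 1.005 and 1.16 TPM in pectoral motor neurons and 1.95, 1.29 and 0.188 TPM in tail cells. RAB41, a Golgi RAB too low for the test, reached 13.2 TPM in tail replicate 1 and stayed between 0 and 1.44 TPM in the other 5 libraries. RAB33A and RAB8B exceeded 1 TPM in 2 libraries and 1 library.

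SCFD1, the Sly1 protein that guides syntaxin 5 in fusion at the Golgi, was the secretory row with the smallest p. It stood at 1.32, 7.89 and 7.59 TPM in pectoral motor neurons against 0.0674, 0.758 and 0 TPM in tail cells. Every pectoral library lay above every tail library, with a log2 difference of 2.19 (SE 0.97, unadjusted p = 0.0316, limma adjusted p = 0.63). Since no tail library had SCFD1 at 1 TPM or more, the row entered the test through the group where it was high and had to differ. ARL1, a trans-Golgi ARF-like protein, also had separated groups, at 2.90, 1.35 and 2.29 TPM in pectoral motor neurons against 1.07, 0.758 and 0.505 TPM in tail cells. Its log2 fold change was 0.82 (SE 0.87, limma adjusted p = 0.90).

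No row of the COPI coat passed. COPB1, the beta subunit of the COPI coat, stood at 23.1, 0 and 16.3 TPM in pectoral motor neurons against 5.14, 0.953 and 2.59 TPM in tail cells, a log2 difference of 1.09 (SE 1.11, limma adjusted p = 0.89). COPG2, its gamma subunit, stood at 2.44, 5.30 and 3.17 TPM in pectoral motor neurons against 12.1, 9.007 and 0 TPM in tail cells (log2 fold change -0.18, SE 1.06, limma adjusted p = 0.99). COPB2 ran from 1.14 to 1.56 TPM in pectoral motor neurons and from 0.441 to 5.78 TPM in tail cells (log2 fold change -0.53, SE 0.99, limma adjusted p = 0.93). COPB1 had its lowest value in a pectoral library, and COPG2 and COPB2 in a tail library. Of the COPII coat, SEC23A stood at 0.976, 1.47 and 13.9 TPM in pectoral motor neurons against 1.79, 1.86 and 0 TPM in tail cells, a log2 difference of 1.06 (SE 1.05, limma adjusted p = 0.89). SEC23A was highest in pectoral replicate 3 by far, and the groups overlapped. SEC23B stood at 1.46, 0.675 and 2.42 TPM in pectoral motor neurons against 6.007, 0.295 and 0.0788 TPM in tail cells. SEC13 was too low for the test.

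Of the Sec61 translocon, SEC61B stood at 2.22, 12.2 and 0.33 TPM in pectoral motor neurons against 19.9, 13.5 and 0.0127 TPM in tail cells. SEC61A1, its channel subunit, was steadier in pectoral libraries, at 1.81, 2.28 and 2.76 TPM, and stood at 5.26, 3.44 and 0.0218 TPM in tail cells. Both rows were near 0 in tail replicate 4 and highest in tail replicate 1, and neither passed (limma adjusted p = 0.91 and 0.996). The median over all rows of the table was likewise lowest in tail replicate 4 and highest in tail replicate 1. The same shape held for VAPA and VAPB, which tie the endoplasmic reticulum to other membranes, with 6.75 and 6.02 TPM in tail replicate 1 against 0 and 0.0423 TPM in tail replicate 4. USO1, a Golgi tether, ran from 0.743 to 2.19 TPM in pectoral motor neurons and from 0 to 2.79 TPM in tail cells.

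ARF GTPases recruit the COPI coat. ARF3b stood at 2.44, 18.7 and 0.351 TPM in pectoral motor neurons against 1.47, 3.83 and 0.527 TPM in tail cells. ARF2b stood at 7.93, 0.431 and 5.08 TPM in pectoral motor neurons against 8.57, 0.244 and 0.482 TPM in tail cells. ARF3a, of the same Trinity component as ARF2b, stood at 2.45, 0.665 and 3.47 TPM in pectoral motor neurons against 7.23, 0.512 and 2.37 TPM in tail cells. ARF2b and ARF3a were both lowest among pectoral libraries in replicate 2 and both highest of all in tail replicate 1. ARF4a, and ARL3, which works at the cilium, were too low for the test. Of the 21 tested secretory rows 11 had a positive and 10 a negative fold change.

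Endosomal rows were led by RAB7, the GTPase of late endosomes, which stood at 24.8, 0 and 18.97 TPM in pectoral motor neurons against 42.99, 17.3 and 4.61 TPM in tail cells. Its fold change of -1.04 (SE 1.07, limma adjusted p = 0.89) was 0.46 without pectoral replicate 2, the library where it was listed at 0. RAB11B, of recycling endosomes, stood at 3.17, 0.232 and 8.52 TPM in pectoral motor neurons against 23.6, 10.8 and 1.16 TPM in tail cells (log2 fold change -1.23, SE 1.07, limma adjusted p = 0.89). RAB7 and RAB11B were highest in tail replicate 1. RAB11A was lower, from 0.230 to 2.36 TPM in pectoral and 0.114 to 1.17 TPM in tail cells. RAB14, which acts between the Golgi and endosomes, stood at 3.46, 0 and 35.2 TPM in pectoral motor neurons against 7.41, 3.67 and 0 TPM in tail cells. All 4 of these rows overlapped between groups.

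The RAB5 GTPases of early endosomes had 4 rows, all contigs of 1 Trinity component. RAB5Aa stood at 3.55, 1.94 and 6.71 TPM in pectoral motor neurons against 1.49, 2.72 and 0 TPM in tail cells. RAB5B stood at 7.57, 1.19 and 13.3 TPM in pectoral motor neurons against 13.6, 0.879 and 1.05 TPM in tail cells. Both were lowest among pectoral libraries in replicate 2. RAB5C stood at 5.57, 1.41 and 4.26 TPM in pectoral motor neurons against 1.37, 4.52 and 0 TPM in tail cells. RAB5Ab, too low for the test, stood at 0.751, 0.220 and 1.67 TPM in pectoral motor neurons against 0.0473, 5.70 and 0 TPM in tail cells. In tail replicate 1 the most abundant of them was RAB5B, and in tail replicate 2 it was RAB5Ab. Summed over the 4 rows the level was 17.4, 4.76 and 25.96 TPM in pectoral motor neurons and 16.5, 13.8 and 1.05 TPM in tail cells. The sum had a log2 difference of 0.81 (SE 0.98, limma adjusted p = 0.90), and its groups overlapped.

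SNX10, a sorting nexin of endosomes, had the smallest p of all trafficking rows. It stood at 5.02, 16.6 and 9.57 TPM in pectoral motor neurons against 1.48, 1.87 and 0 TPM in tail cells. Every pectoral library lay above every tail library, with a log2 difference of 2.43 (SE 1.0, unadjusted p = 0.0212), which did not pass over all rows (limma adjusted p = 0.58). The fold change was positive under all 15 alternatives, from 1.27 to 3.79, with limma adjusted p of 0.34 to 0.99. Since the groups were separated, only median-ratio or quantile scaling could have changed its sign. By exact permutation (two-sided) the p for SNX10 is 0.1, which is the smallest that 3 against 3 libraries allow. SNX3, which helps retromer return cargo, stood at 2.004, 3.55 and 6.83 TPM in pectoral motor neurons against 2.66, 0.187 and 5.56 TPM in tail cells, and its groups overlapped. SNX27 was at 0 in 3 libraries and too low for the test.

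AP3D1, the delta subunit of the AP-3 adaptor that sorts cargo to lysosomes, was the 1 tested trafficking row with every tail library above every pectoral library. It stood at 1.13, 0.514 and 0.345 TPM in pectoral motor neurons against 12.5, 1.98 and 1.96 TPM in tail cells, a log2 difference of -1.59 (SE 1.01, limma adjusted p = 0.84). Of the AP-2 adaptor of endocytosis, AP2B1 stood at 2.32, 2.75 and 5.23 TPM in pectoral motor neurons against 10.9, 0.0921 and 4.10 TPM in tail cells. AP2M1 stood at 102 TPM in tail replicate 4 and between 0 and 1.37 TPM in the other 5 libraries. That 1 value gave AP2M1 one of the highest mean levels of the 75 rows, although it was too low in the other libraries for the test. CLINT1, a clathrin adaptor of the Golgi and endosomes, stood at 0.323, 3.93 and 18.2 TPM in pectoral motor neurons against 6.08, 0.137 and 0 TPM in tail cells. PICALM, an endocytic clathrin adaptor, ran from 0.483 to 6.18 TPM in pectoral motor neurons and from 0.844 to 3.69 TPM in tail cells.

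VPS26A, a core subunit of retromer, stood at 1.74, 15.1 and 3.41 TPM in pectoral motor neurons against 16.4, 4.54 and 0 TPM in tail cells. The ESCRT-I subunit VPS28 had 2.36, 3.0 and 0 TPM in pectoral motor neurons and 2.97, 0.932 and 0.0187 TPM in tail cells. VPS16, of the tethers that act at late endosomes, had 1.37, 0 and 2.22 TPM in pectoral motor neurons and 3.86, 0.780 and 0 TPM in tail cells. None of the 3 separated the groups. RAB15 and RAB24 were too low for the test, and in both every pectoral library lay above every tail library. Most separated rows of the whole table that were too low for the test had this direction. RAB15, of early and recycling endosomes, stood at 2.34, 0.413 and 0.625 TPM in pectoral motor neurons against 0.141, 0.1 and 0 TPM in tail cells. RAB24, linked to autophagy, had 1.098, 0.0847 and 0.636 TPM in pectoral motor neurons and 0.0426, 0 and 0 TPM in tail cells. ARF6a, ARF6b, STX8 and VPS37A each exceeded 1 TPM in at most 1 library.

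**Figure D4:**
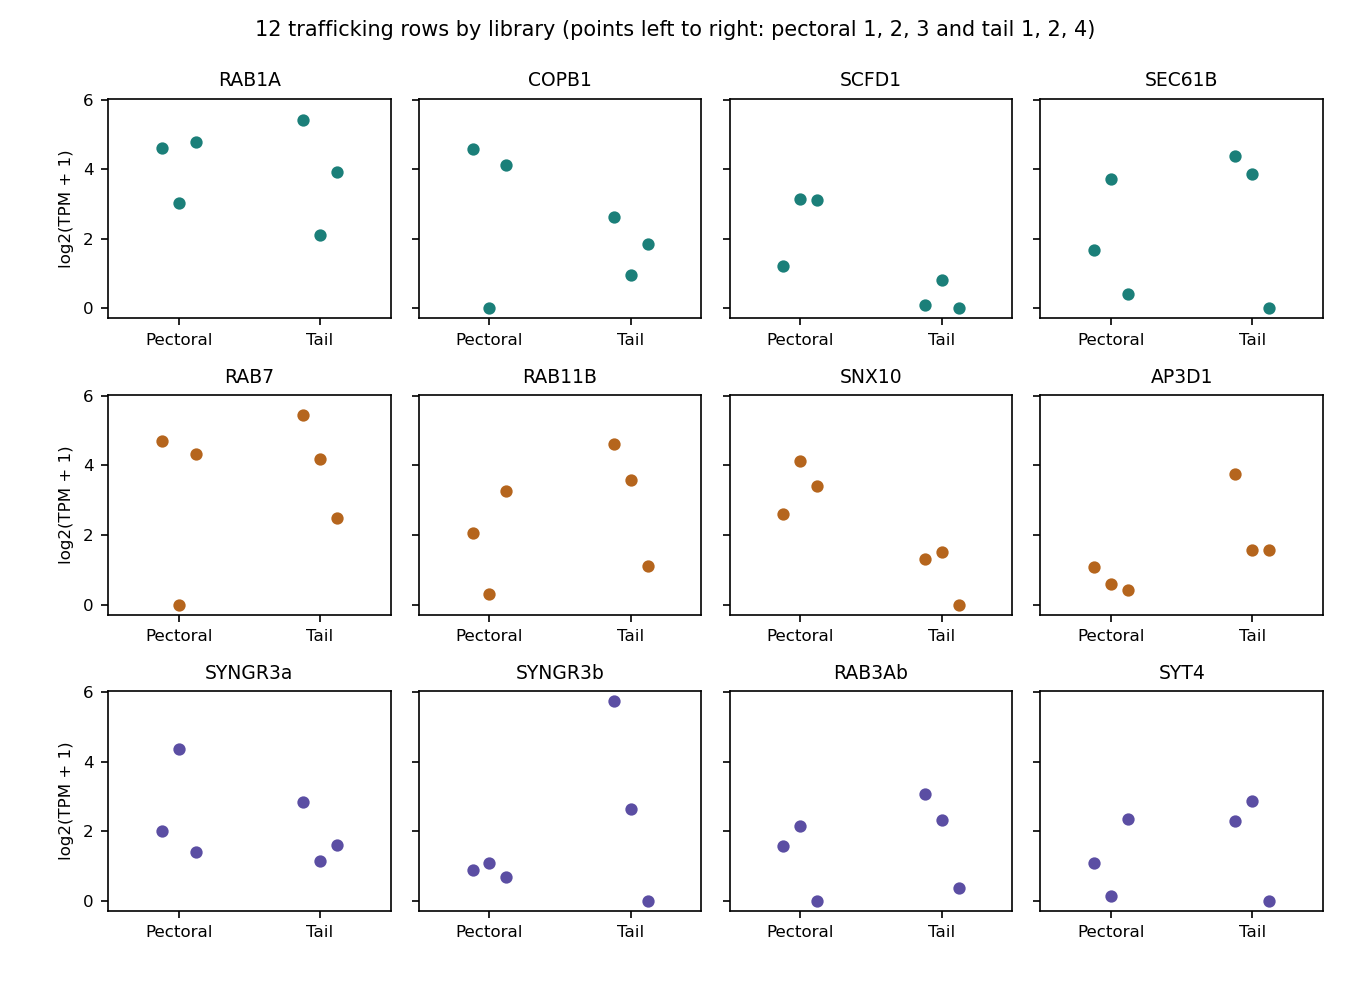
Level of 12 trafficking rows as log2(TPM + 1), 1 point per library, in pectoral libraries (left in each panel) and tail libraries (right). SNX10 and SCFD1 have all pectoral points above all tail points, AP3D1 has the opposite order, and the other 9 rows overlap.

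Synaptic rows were few, and several well-known presynaptic genes were not among them. STX1A, SNAP25, VAMP2, SYT1, SYP and SYN1 had no described row and were not analysed here. SYNGR3 encodes a synaptic vesicle membrane protein and had 2 rows of 1 Trinity component. SYNGR3b stood at 0.852, 1.14 and 0.599 TPM in pectoral motor neurons against 52.04, 5.24 and 0 TPM in tail cells. Tail libraries held both the highest and the lowest value of SYNGR3b. SYNGR3a stood at 2.99, 19.7 and 1.63 TPM in pectoral motor neurons against 6.17, 1.22 and 2.03 TPM in tail cells. The 2 rows differed in direction, with log2 fold changes of -1.90 (SE 1.16, limma adjusted p = 0.84) for SYNGR3b and 0.72 (SE 1.04, limma adjusted p = 0.91) for SYNGR3a. Summed, they stood at 3.84, 20.8 and 2.23 TPM in pectoral motor neurons and 58.2, 6.46 and 2.03 TPM in tail cells, with a log2 difference of -0.66 (SE 1.06, limma adjusted p = 0.92). Without tail replicate 1, the fold change of SYNGR3b was -0.43.

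RAB3A, the GTPase of synaptic vesicles, had 2 rows of 1 Trinity component. RAB3Ab stood at 1.98, 3.40 and 0 TPM in pectoral motor neurons against 7.41, 3.98 and 0.286 TPM in tail cells. RAB3Aa had 0.823, 0.426 and 0 TPM in pectoral motor neurons and 5.21, 0.988 and 0.630 TPM in tail cells. Both rows were listed at 0 in pectoral replicate 3 and highest in tail replicate 1. Summed, RAB3A stood at 2.80, 3.82 and 0 TPM in pectoral motor neurons against 12.6, 4.96 and 0.915 TPM in tail cells (log2 fold change -1.03, SE 1.06, limma adjusted p = 0.89).

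SYT4, a synaptotagmin of secretory vesicles, stood at 1.14, 0.111 and 4.07 TPM in pectoral motor neurons against 3.94, 6.30 and 0 TPM in tail cells (limma adjusted p = 0.93). SYT12, too low for the test, had 1.32, 0 and 5.08 TPM in pectoral motor neurons and 0.0923, 0 and 0 TPM in tail cells. STX3 exceeded 1 TPM in pectoral replicate 1 only. Of the 5 tested synaptic rows 4 had a negative fold change and 0 separated the groups. Of these 5 rows, 4 were at 0 in tail replicate 4 or in pectoral replicate 3.

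The 13 other rows included 3 that entered the test. VAT1, first described from electric organ synaptic vesicles, stood at 2.34, 3.82 and 4.29 TPM in pectoral motor neurons against 10.4, 2.58 and 1.46 TPM in tail cells. RAP1B, a GTPase of cell adhesion, had 2.33, 3.88 and 1.93 TPM in pectoral motor neurons and 6.57, 0.387 and 0 TPM in tail cells. SYNCRIP, an RNA-binding protein, had 2.25, 0.997 and 2.20 TPM in pectoral motor neurons and 5.55, 5.45 and 0.640 TPM in tail cells. All 3 overlapped. ARL6IP4 stood at 7.91, 7.15 and 0 TPM in pectoral motor neurons and 0.563, 0 and 0 TPM in tail cells. ARL6IP5b had 0.891, 0 and 10.1 TPM in pectoral motor neurons but 0 TPM in each of the tail libraries. As single rows, both passed 1 TPM in fewer than 3 libraries and were not tested. ARL6IP5b and ARL6IP5a are contigs of 1 Trinity component and share 1 Trinity gene name. Summed, these 2 rows stood at 2.06, 0 and 10.1 TPM in pectoral motor neurons and 1.08, 0 and 0 TPM in tail cells. That sum had a log2 difference of 1.34 (SE 0.83, limma adjusted p = 0.84), and its groups overlapped. The other 8 rows of the class, ARL6IP5a among them, were at 1 TPM or more in 2 libraries or fewer. They were RAN of nuclear transport, CHMP3 of ESCRT-III, ARL6IP5a, CAMKV, LLPH, RABL3, SESTD1 and a SYNCRIP-like row. SYNCRIP, its like row and LLPH are members only because the word synap stands in their descriptions.

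Of the listed pathway genes outside the member rule 15 had a row, 9 were tested and 0 passed in limma. At an unadjusted p under 0.05 there were also 0 of 9, too few rows to set against the 7.04% of all tested rows. The 9 rows had a median log2 fold change of 0.13 (5 positive and 4 negative). KDELR2, which returns proteins to the endoplasmic reticulum, stood at 5.49, 14.2 and 4.75 TPM in pectoral motor neurons against 5.56, 0.745 and 0 TPM in tail cells (log2 fold change 1.88, SE 1.03, limma adjusted p = 0.79). GDI2, which extracts RABs from membranes, had 3.98, 7.68 and 3.27 TPM in pectoral motor neurons and 9.30, 4.92 and 0.449 TPM in tail cells. SAR1B, the GTPase that starts the COPII coat, had 4.43, 0.121 and 2.95 TPM in pectoral motor neurons and 4.07, 2.52 and 9.41 TPM in tail cells. Groups overlapped in all 3 rows. RAC1, a GTPase of the actin cytoskeleton and too low for the test, was below 1 TPM in all 3 pectoral libraries, 0.772 TPM being the highest, and stood at 2.02, 23.3 and 0.883 TPM in tail cells. GOLGA2, a Golgi matrix protein also too low for the test, was separated the other way, at 1.04, 0.216 and 0.163 TPM in pectoral motor neurons and 0.0568, 0.0251 and 0.0445 TPM in tail cells.

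Spearman's rho across the 75 rows ran from 0.236 to 0.490 between libraries of 1 group (6 pairs, median 0.324) and from 0.188 to 0.426 between libraries of different groups (9 pairs, median 0.352). Over all 3752 tested rows the medians were 0.249 and 0.196. The 75 rows include 30 that did not enter the test, so these row sets are unlike. These describe rows that share libraries and are not independent. Markers of other cell types also varied. Progenitor and radial glia markers (7 rows) summed to 91.8, 73.7 and 116 TPM in pectoral motor neurons and 53.2, 55.2 and 22.7 TPM in tail cells. In this sum too, as in that of the motor neuron markers, the groups did not overlap. ID4, a progenitor regulator, had the highest mean of them, at 72.6, 30.3 and 76.9 TPM in pectoral motor neurons and 14.4, 22.4 and 0.309 TPM in tail cells. The groups did not overlap in ID4 either (log2 fold change 2.86, SE 0.94, limma adjusted p = 0.49). Among all 7 progenitor and radial glia rows, 5 were tested. Those 5 were not of one sign, with 2 positive and 3 negative and a median log2 fold change of -0.64. ID4 and FABP7 made up most of the sum in all 3 pectoral libraries. The tested FABP7 row had a log2 fold change of 1.23, and its groups overlapped. SOX2 had 2.85, 0 and 0.439 TPM in pectoral motor neurons and 13.98, 5.98 and 0 TPM in tail cells (log2 fold change -1.41). One of 2 SOX9 rows had 2.14, 0.382 and 0.134 TPM in pectoral motor neurons and 6.95, 19.4 and 0 TPM in tail cells (log2 fold change -1.68). PAX6 had 1.40, 0.982 and 0.142 TPM in pectoral motor neurons and 2.59, 1.33 and 1.46 TPM in tail cells (log2 fold change -0.64). Groups overlapped in SOX2, SOX9 and PAX6, and none passed. COL2A1, a cartilage collagen and the 1 mesenchyme marker with a row, stood at 2.22, 69.03 and 4.49 TPM in pectoral motor neurons and 4.91, 0.109 and 0 TPM in tail cells. Of the 75 trafficking rows 16 had their highest pectoral value in that same replicate 2, 36 in replicate 1 and 23 in replicate 3. The part of these markers in the values of the trafficking rows was not tested. The muscle, blood, skin and differentiated glia markers listed had no described row and were not analysed here.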

How the data were processed

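RNA-seq was analysed from 6 libraries of hand-sorted embryonic skate spinal cord cells. The values deposited by the authors are TPM, per the file headers. Tools listed in the submitters' processing notes, with no role given, are Salmon 0.8.2, Trimmomatic 0.33 and edgeR 3.18.1. Contigs carry Trinity names. The genome build is not given in the sources used here. Per the labels' protocols, RNA was extracted with a PicoPure kit and made into TruSeq stranded mRNA libraries. Read depth cannot be had from TPM, so counting error is not given.

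The table had 7081 rows, of which 1 exact repeat was removed. Gene names came from the descriptions alone, since 0 accessions matched the skate reference gene table. No sequences or coordinates were used. Groups were compared with limma 3.58.1 under R 4.3.3, moderated with a trend on the mean, on log2(TPM + 1) for the 3752 rows that reached 1 TPM in 3 or more of 6 libraries, and called at an adjusted p under 0.05. The script was tested on simulated data with normal noise, of equal spread in all 6 libraries for a given row. The many rows at 0 in tail replicate 4 were not simulated, so that run checks only the code. The members and lists were chosen with earlier results of these data known.

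Named rows were, in each class, the 5 of highest mean, the 3 of smallest p in each direction, separated rows averaging 5 TPM or more on the higher side, and a list of well-known genes. Other rows are named so that the members are accounted for, after their values were seen, and 3 member rows are counted but not reported here by name. Classes follow a fixed list. ARL3 falls under secretory by that list, while CHMP3, which it does not name, SESTD1, SYNCRIP and LLPH stand under other. Alternatives were other pseudocounts, no filter, median-ratio and quantile scaling, array weights, no trend, a replicate block and left-out libraries. Summing rows of 1 Trinity component, and counting SYNCRIP and LLPH as synaptic, were chosen after seeing the data.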

Additional observations from a re-analysis of the deposited data

How the results depend on the processing

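The number of trafficking rows past the threshold was 0 with the TPM as deposited and 0 under all 16 alternatives. Few rows of any kind passed. The share of all tested rows was 0.693% with array weights and 0% to 0.08% in every other setting. Under the alternatives 1 to 3 trafficking rows had an unadjusted p under 0.05 in limma. Under median-ratio scaling the median over all 3752 tested rows shifted by 0.26, to 0.08. Leaving out each library in turn gave medians of -0.26 to 0.73 for all trafficking rows, -0.26 to 0.61 for secretory, -0.11 to 0.81 for endosomal and -1.39 to -0.10 for synaptic rows. Replicate numbers 1 and 2 are shared by both groups, but same-numbered libraries did not deviate together (r = -0.03 and -0.003). With 3 noisy libraries per group, this cannot show whether they share embryos or handling. Pectoral replicate 3 and tail replicate 4 share their number with no other library. A fold change fitted with the replicate block therefore rests on replicates 1 and 2 of each group alone. With the replicate block 0 trafficking rows passed, the medians were -0.51 for all trafficking rows, -0.46 for secretory and -0.21 for endosomal rows, against -0.44 over all tested rows, and that of synaptic rows moved to -1.96.

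Of 375 fold changes of 25 named rows under 15 alternatives, 352 kept their direction, 23 changed it and 0 passed. The settings without filter and without trend leave a fold change as it was. Some rows were also named for a small p or for separated groups in these data. The 352 thus overstates how steady the directions were. The cause of the changes was not tested. With the block, where pectoral replicate 3 and tail replicate 4 do not count, CLINT1 was at -0.15 and RAB14 at -1.57. In the same fit VPS26A was at -0.57 and SEC23A at -0.35. With array weights VPS26A was at -0.28 and RAB1B at 0.37, and with median-ratio scaling VAT1 at 0.25. Without pectoral replicate 1 and tail replicate 4 together RAB14 was at -0.06, VPS26A at -0.22 and RAB1B at 0.43. Leaving out 1 library gave -0.69 to 1.90 for RAB14, -1.89 to 0.46 for RAB7, -0.05 to 1.19 for SNX3, -0.76 to 1.30 for VPS26A, -0.54 to 0.57 for VAT1, -0.52 to 1.12 for RAB1A, -1.98 to 0.12 for RAB1B, -2.18 to 0.00 for SEC61B, -0.17 to 1.32 for SYNGR3a and -1.39 to 0.04 for SYT4. The ratio of summed endosomal TPM was 1.18 without its 3 highest rows.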
